A study of Mus musculus with 8 samples.

Results

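Among the single cells of mouse left ventricle sequenced here, a set of Thbs1-rich, C1q-poor myeloid cells was taken apart, labelled in advance as Thbs1/Arg1 recruited monocyte-derived macrophages. Its 557 members, of 19637 barcodes that passed the filter, were selected on their own unique molecular identifier (UMI) counts: at least 200 genes and at most 30% mitochondrial UMIs, Thbs1, Arg1 and Vcan together at 0.3% of UMIs or more, Lyz2 at 0.2% or more, the 3 C1q chains together under 0.2%, S100a8 and S100a9 under 2%, Dcn and Col3a1 under 0.15%, and at most 1 UMI of Cd79a and Cd3e. The 548 members of the ischemia-reperfusion (IR) library and the 9 members of the sham library are described below. Levels of these selecting genes are a description of the choice and support nothing.

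The hearts came from male C57BL/6 mice of 10 to 12 weeks. The IR group had 30 min of ischemia and was taken at 6 h. The comparison group, called sham here, is titled IR0h and recorded at 0 h in the labels. An ischemia of 30 min is recorded for both groups. The study's methods instead describe sham mice operated on without ligation, with hearts taken 6 h after either operation. The 4 recorded samples of each condition pool 3 hearts each, but each condition was available as 1 matrix whose barcodes name no sample, so each condition was treated as 1 library without replicates. No difference was therefore tested. The intervals given are exact 95% intervals that cover counting error only and say nothing about mice. Of the barcodes, 30 occurred in both libraries, and 2 of these were members.

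Blood monocytes enter the injured heart within hours through the chemokine receptor CCR2, and classical ones carry Ly6C on their surface. There they lose monocyte genes and turn on macrophage programs over days, while tissue-resident macrophages, with MerTK, LYVE1, FOLR2 and TIMD4, are seeded before birth or renew locally and clear dying cells. Thrombospondin 1 (Thbs1) is a matricellular protein that binds CD36 and CD47, arginase 1 (Arg1) turns arginine into ornithine, and versican (Vcan) is a matrix proteoglycan of monocytes. Thbs1 lies on chromosome 2 (118111876-118127133, plus strand), Arg1 on chromosome 10 (24915221-24927484, minus strand) and Vcan on chromosome 13 (89655312-89742509, minus strand) of GRCm38, all protein-coding genes.

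The 3 comparison groups of the IR library were formed from markers as well: 180 Ly6c2 monocytes, which met the rest of the rule but lay under its threshold and held Ly6c2 at 0.05% of UMIs or more, 957 C1q macrophages and 2236 neutrophils. The IR members were as deep as the monocytes, with a median of 13008 UMIs (range 548 to 52859) and 2766 genes per cell against 13026 UMIs and 2997 genes, and the C1q macrophages had a median of 9857 UMIs. Median mitochondrial shares were 4.09%, 4.24% and 5.16%. The summed members held 6948002 UMIs, and levels are given as CPM, the UMIs of a gene in the summed cells of a group scaled to a total of 1000000. A simulated-doublet score marked 22 of the 548 IR members and none of the 9 sham members.

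Thbs1 carried the selection and Arg1 contributed little. In the IR members 78.9% of the UMIs of the 3 genes were Thbs1, 13.2% Vcan and 7.93% Arg1. Thbs1 was the most abundant of the 3 in 517 cells, Vcan in 18 and Arg1 in 11, with 2 ties, and 444 members would have passed on Thbs1 alone. Thbs1 UMIs were present in 546 of the 548 cells, at a median of 0.461% of UMIs and a maximum of 2.40%, whereas Arg1 UMIs were present in 184 cells (33.6%, 29.6 to 37.7%) and its median was 0. In these data the name therefore describes a Thbs1-rich population of which a minority held Arg1. Just outside the threshold, 70 IR cells lay between 0.25% and 0.3%, and 49 members lay between 0.3% and 0.35%. There was no gap at the threshold.

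**Figure D1:**
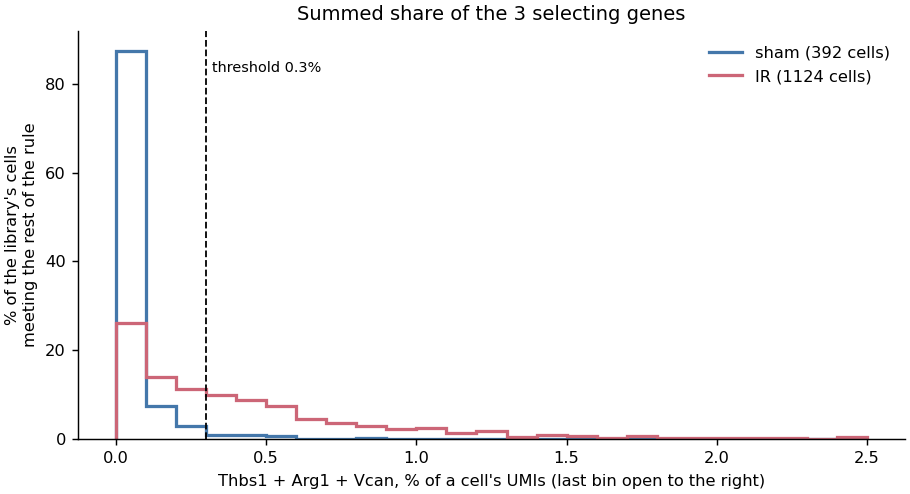
Share of each library's cells that met the rest of the rule (y axis, percent of 392 sham and 1124 IR cells) by the summed share of Thbs1, Arg1 and Vcan in the cell's UMIs (x axis, bins of 0.1 percentage points, the last open to the right), with the threshold dashed. The sham cells sit almost entirely in the lowest bins and the IR cells trail off to the right without a gap at 0.3%.

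The markers given for the population were chosen with earlier results of these data known, so their levels describe the cells and support nothing. Chil3, which encodes a chitinase-like protein of monocytes and alternatively activated macrophages, was found in 511 of the 548 IR members at 6660.0 CPM (6599.5 to 6721). Ccr2 was found in 506 cells at 767 CPM, and Ltb4r1, the high-affinity receptor of the chemoattractant leukotriene B4, in 465 cells at 324 CPM. Saa3, an acute-phase serum amyloid protein, was uneven: 308 cells held a UMI, the median cell had 0.0139% of its UMIs from Saa3 and the highest 2.27%. None of these 4 genes entered the rule, but its C1q limit set the members apart from the IR C1q macrophages. All 4 were 2-fold or more above the level in those macrophages. Against the Ly6c2 monocytes none was: the log2 ratio was 0.17 (0.14 to 0.19) for Chil3, 0.12 (0.07 to 0.17) for Saa3, 0.85 (0.70 to 1.01) for Ltb4r1 and −0.76 (−0.83 to −0.70) for Ccr2, which was lower in the members.

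At a common depth of 2000 UMIs, which left out 23 members and 15 monocytes, Arg1 was seen in 21.3% (17.9 to 25.1%) of the IR members, 1.82% (0.377 to 5.22%) of the monocytes, 3.35% of the C1q macrophages and 0.627% (0.171 to 1.60%) of IR B cells, a type that should lack it. Ltb4r1 was seen in 39.4% of members, 27.9% of monocytes and 0.627% of B cells. Before thinning, B cells had a median of 3387 UMIs and held Arg1 and Ltb4r1 UMIs in 1.02% of cells each. Ltb4r1 was thus well above the free-RNA level in the members. Arg1 is a selecting gene, so its share in the members describes the choice and supports nothing. Saa3, at 46.1% of members and 44.2% of monocytes, had overlapping intervals (41.8 to 50.5% and 36.5 to 52.2%).

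Whether these cells are macrophages was less clear than the label has it. Of the 13 macrophage genes measured, 2 were 2-fold or more higher in the members than in the Ly6c2 monocytes and 0 were lower, with a median log2 ratio of −0.03 beside −0.13 over all 6652 genes compared. Of these 6652 genes, 4.16% were 2-fold or more higher and 6.03% lower. The 2 higher ones were Mrc1, the mannose receptor (76.4 against 22.7 CPM), and Maf (156 against 66.9 CPM), a factor that drives macrophage genes. Csf1r, the receptor of the macrophage growth factor, stood at 259 CPM in the members, 309.5 in the monocytes and 590.1 in the C1q macrophages, and Adgre1, which encodes F4/80, at 85.8, 121 and 213 CPM. Fcgr1 (CD64) stood at 281, 164 and 225 CPM. Mertk, a receptor for the uptake of dying cells, was at 9.50 CPM in the members and 56.5 CPM in the C1q macrophages. By these values the members stood close to Ly6c2 monocytes in most macrophage genes, and "members" is used for them below.

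Of the 13 classical-monocyte genes measured, 2 (Ly6c2 and Ly6a) were 2-fold or more lower than in the Ly6c2 monocytes and 0 higher, with a median log2 ratio of −0.76, while against the C1q macrophages 11 of 13 were higher. Ly6c2 itself, which chose the monocytes and not the members, stood at 393 CPM in the members and 1157 CPM in the monocytes. Plac8 stood at 1666 and 2886 CPM in the same groups. Ly6c2 has a close paralogue, so its reads may be shared.

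The 8 resident-macrophage markers summed to 75.7 CPM in the members, 33.0 in the monocytes and 2698 in the C1q macrophages. Most of the sum in the members was Stab1, a scavenger receptor, at 59.4 CPM against 18.7 CPM in the monocytes (log2 ratio 1.67, 1.21 to 2.16), the 1 gene of the list with enough UMIs for that comparison. Of the others, Timd4 was at 0.432, Folr2 at 1.30, Cd163 at 2.02 and Lyve1 at 2.88 CPM. The 12 neutrophil markers include S100a8 and S100a9, which the rule limits in members and monocytes alike, and summed to 2176 CPM in the members, 2103 in the monocytes, 930 in B cells and 129970 in the neutrophils, and the neutrophil gene Retnlg, which the rule did not use, was at 63.0 CPM in the members, 20.1 in the monocytes, 71.4 in B cells and 9705 in neutrophils. Dendritic-cell markers summed to 11.8 CPM, lymphoid ones to 27.6 CPM and cardiomyocyte ones to 77.7 CPM, compared with 88.2 CPM of the last in B cells. Among the lymphoid genes Gzma, a granzyme of killer lymphocytes, stood at 18.3 CPM and was at 0 in the monocytes, but only 6 members held it and 5 of them held 99.2% of its UMIs.

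**Figure D2:**
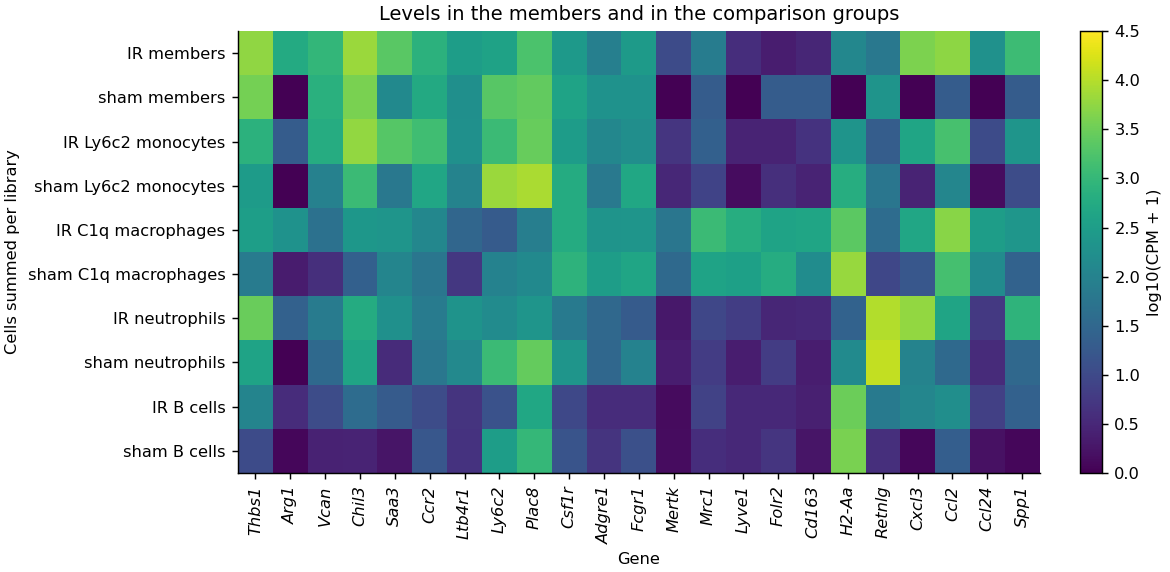
Levels of genes (columns) in the summed cells of each group and library (rows), as log10(CPM + 1). The IR members lie close in Chil3, Saa3, Ccr2 and Vcan to the IR Ly6c2 monocytes, lack Lyve1, Folr2 and Cd163 of the C1q macrophages, and share high Thbs1 and Cxcl3 with the IR neutrophils.

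The cells were nearly absent from the sham library. There, 9 of 11377 passing barcodes were members (0.0791%, 0.0362 to 0.1501%), against 548 of 8260 in the IR library (6.63%, 6.11 to 7.19%). The IR share was 3.18% with at most 2500 genes per cell, a limit that 393 of the 548 IR members exceed, and 4.10% at a threshold of 0.5%, where the sham share was 0.0264%. At 0.2% the sham share was 0.176%. Among cells that met the rest of the rule, members made up 2.30% (1.06 to 4.31%) of 392 sham cells and 48.8% (45.8 to 51.7%) of 1124 IR cells. Since the rule is a threshold on Thbs1, Arg1 and Vcan, a share counts both cells that arrived and cells that crossed the threshold, and the 2 cannot be told apart. Ly6c2 monocytes were 2.52% of sham and 2.18% of IR barcodes by the same filter, but that group loses the cells above the threshold. Cells just outside the threshold numbered 5 in the sham library and members just inside it 2.

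Thbs1 was also higher in the other myeloid groups of the IR library. It stood at 293 CPM in sham and 783 CPM in IR Ly6c2 monocytes, at 74.6 and 337 CPM in C1q macrophages, and at 412 and 2950.1 CPM in neutrophils. Arg1 had 0 UMIs in the sham monocytes and neutrophils and 0 in the sham members. In C1q macrophages it stood at 1.24 CPM in the sham and 194 CPM in the IR library. Saa3 in Ly6c2 monocytes was 61.9 and 2046 CPM and Chil3 1187 and 5936 CPM. The monocytes under the threshold thus differed between the libraries in the same direction in all of these genes except Ly6c2, at 6717 CPM in the sham and 1157 CPM in the IR library. Monocytes below the threshold are by the rule limited in Thbs1, Arg1 and Vcan, so only the values of the other genes are free of it.

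What set the IR members apart from the IR Ly6c2 monocytes was first a set of chemokines. Cxcl3, a ligand of the neutrophil receptor CXCR2, stood at 4109 CPM in the members and 449.6 CPM in the monocytes, a log2 ratio of 3.19, and 461 of the 548 members held it. Cxcl1, another such ligand, stood at 937 against 169 CPM (log2 ratio 2.47, 2.32 to 2.63), and Cxcl2, the third of these neighbouring ligand genes, at 20251 against 8455 CPM (log2 ratio 1.26, 1.24 to 1.28). Of 8 CXC chemokine genes measured, 5 were 2-fold or more higher and 1 lower. The latter was Cxcl9, an interferon-γ-induced chemokine with 0 UMIs in the members and 11.1 CPM in the monocytes. Against the C1q macrophages 2 of 8, Cxcl3 and Cxcl2, were 2-fold or more higher and 3 lower. The 9 genes listed summed to 25870 CPM in members, 9671 in monocytes, 11164 in C1q macrophages and 49282 in IR neutrophils. At the common depth used above, Cxcl3 was seen in 65.5% of members and 72.3% of IR neutrophils. Its intervals for monocytes (16.8 to 30.2%) and B cells (15.1 to 21.2%) overlapped.

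Cxcl1, Cxcl2 and Cxcl3 lie close together on chromosome 5 and are textbook targets of NF-κB. Their upstream windows are shown because these neighbouring genes were high together. Each is the 200 bases before the RefSeq start on the plus strand of GRCm38.p6, with matches to the letters GGNNTTTCC on either strand in capitals. Such a match is present in 4.05% of 32851 windows of this length in the promoter table, and it is a description of letters, not a site in use.
Cxcl1, chr5:90891045-90891244: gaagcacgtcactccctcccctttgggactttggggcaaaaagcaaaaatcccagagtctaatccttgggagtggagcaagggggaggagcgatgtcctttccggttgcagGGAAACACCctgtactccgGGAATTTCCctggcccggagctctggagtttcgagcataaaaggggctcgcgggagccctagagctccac
Cxcl2, chr5:90903699-90903898: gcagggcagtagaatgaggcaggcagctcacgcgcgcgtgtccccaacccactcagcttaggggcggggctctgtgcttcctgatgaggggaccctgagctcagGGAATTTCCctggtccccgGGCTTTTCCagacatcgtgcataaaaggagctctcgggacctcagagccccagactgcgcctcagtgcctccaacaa
Cxcl3, chr5:90785901-90786100: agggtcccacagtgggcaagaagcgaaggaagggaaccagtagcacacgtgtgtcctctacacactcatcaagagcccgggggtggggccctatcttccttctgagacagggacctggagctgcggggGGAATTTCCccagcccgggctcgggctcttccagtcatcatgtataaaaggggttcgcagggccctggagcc
Cxcl1 and Cxcl2 held 2 matches each and Cxcl3 held 1. Of 8 genes looked up, 4 had a window, and the window of Vcan, not shown, held 0 matches. Thbs1, Arg1, Ccl2 and Ccl7 had no window. Of 13 NF-κB feedback genes, 0 were 2-fold higher in the members than in the monocytes, 9 were above 0 on the log2 scale, and 7 were 2-fold higher than in the C1q macrophages.

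Monocyte-attracting CC chemokines were higher too. All 9 that could be measured had a log2 ratio above 0 against the monocytes, and 5 passed 2-fold. Their median was 1.83, beside −0.13 over all 6652 genes. Ccl2, the main ligand of CCR2, stood at 5456 against 1532 CPM (log2 ratio 1.83, 1.78 to 1.88), and Ccl7, another CCR2 ligand, at 1829 against 239 CPM (log2 ratio 2.94, 2.81 to 3.07). Ccl12 stood at 216 against 37.5 CPM. Ccl24, an eosinophil attractant of alternatively activated macrophages, had the largest ratio of the named genes outside the rule at 188 against 9.81 CPM (log2 ratio 4.26, 3.65 to 4.94), yet 113 members held it and 5 of them held 43.2% of its UMIs. Ccl5 (46.2 against 9.37 CPM) rested on few cells, with 77.3% of its UMIs in 5 of them, and its direction turned with a stricter threshold. The C1q macrophages were not behind in this group: Ccl2 was at 5001 CPM and Ccl24 at 323 CPM there, and 0 of 11 CC chemokines were 2-fold higher in the members. At the common depth used above, Ccl7 was seen in 43.2% of members. Its shares of monocytes (10.9%, 6.59 to 16.7%) and B cells (10.2%, 7.95 to 12.8%) had overlapping intervals. Ccl2 was seen in 71.4% of members, 44.8% of monocytes and 26.2% of B cells.

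Cytokines and growth factors followed. Of 13 measured, 7 were 2-fold or more higher than in the monocytes and 0 lower. Vegfa, the vessel growth factor, stood at 149 against 26.3 CPM (log2 ratio 2.50, 2.12 to 2.91), Tnf at 517 against 194 CPM and Il10, an anti-inflammatory cytokine, at 42.5 against 17.4 CPM. Inhba, the activin A subunit, stood at 291 against 41.5 CPM. Il1b was high in both, at 10167 and 7306 CPM, and its natural antagonist Il1rn had the larger ratio, 1.26 against 0.48. Both inflammatory and anti-inflammatory genes were thus among the higher ones.

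Matrix and clotting genes formed another group. Besides Thbs1, which the rule used, Spp1 (osteopontin) stood at 1211 against 221 CPM (log2 ratio 2.46, 2.32 to 2.59) and the crosslinking enzyme Tgm2 at 205 against 39.2 CPM, while fibronectin (Fn1) was at 1558 and 1455 CPM. Of 10 genes of this list 5 passed 2-fold, and Thbs1 is one of them. Serpinb2, an inhibitor of plasminogen activators, stood at 211 against 59.8 CPM and F3, the tissue factor that starts clotting, at 38.0 against 12.5 CPM. Cd36, a scavenger receptor that also binds thrombospondin 1, stood at 60.3 against 8.03 CPM. Pdpn (podoplanin), a membrane protein that activates platelets through CLEC-2, stood at 50.8 against 4.46 CPM and was found in 95 members. Spp1 was found in 252 members, Cd36 in 132, Serpinb2 in 133 and F3 in 89. The 5 top cells of each held 21.1%, 24.6%, 30.4% and 28.0% of its UMIs, in that order. Proteases and their inhibitors had 5 of 14 higher, among them Adam8 at 487 against 151 CPM and Timp1 at 133 against 49.5 CPM.

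Arginine and polyamine genes were split. Beside Arg1, Slc7a2, a transporter of arginine, stood at 22.6 against 3.12 CPM, Odc1, which makes putrescine from ornithine, at 243 against 85.2 CPM and Smox, which oxidizes spermine, at 305 against 136 CPM. Ckb, a creatine kinase of this list, was lower at 19.6 against 55.7 CPM. In all 5 of 17 passed 2-fold upward, Arg1 of the rule being 1 of them, and 1 downward.

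Of 31 hypoxia and glycolysis genes 28 were above 0, 8 passed 2-fold and 0 were lower, with a median log2 ratio of 0.53. Over all 6652 genes compared with the monocytes, 4.16% were 2-fold or more higher and the median was −0.13. Hif1a, the oxygen-regulated factor, stood at 593 against 257 CPM (log2 ratio 1.21, 1.08 to 1.33), the lactate exporter Slc16a3 at 309 against 134 CPM and hexokinase 2 (Hk2) at 111 against 52.6 CPM. Of 18 respiratory-chain genes 1 was above 0 and none passed 2-fold, with a median of −0.28. Against the C1q macrophages, 15 of 32 hypoxia and glycolysis genes passed 2-fold upward, beside 8.25% of all 7370 genes compared.

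The heme-degrading enzyme Hmox1 stood at 595 CPM in the members, 153 in the monocytes and 1876 in the C1q macrophages. At the common depth used above, its shares of members (28.4%, 24.6 to 32.4%) and monocytes (23.0%, 16.8 to 30.2%) had overlapping intervals. The 5 top members held 20.4% of its UMIs. Ferritin heavy chain (Fth1) stood at 14041 CPM in the members against 6812 CPM in the monocytes. Among the eicosanoid genes, Ptgs2, the inducible cyclooxygenase, stood at 1864 against 590.0 CPM (log2 ratio 1.66, 1.58 to 1.74), whereas Alox5ap, which serves leukotriene synthesis, was at 919 against 1317 CPM. C5ar1, a receptor of the complement fragment C5a, stood at 596 against 206 CPM. Abca1, which exports cholesterol, stood at 50.7 against 6.24 CPM, and Dab2, an endocytic adaptor, at 618 against 128 CPM.

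Some genes were lower than in the monocytes. All 6 MHC class II genes measured had a log2 ratio below 0 (median −0.65, beside −0.13 over all 6652 genes). Of them 1, H2-DMb1, passed 2-fold at 63.6 against 132 CPM. Prtn3, a granule protease of young myeloid cells, stood at 29.8 against 114 CPM. Cd209a, a marker of monocyte-derived dendritic cells, stood at 3.02 against 85.6 CPM, and 18 of the 180 monocytes held it. The 8 dendritic-cell markers summed to 104 CPM in the monocytes and 11.8 CPM in the members, and without the monocytes that held Cd209a the log2 ratio of H2-DMb1 was −0.75. Hgsnat, a lysosomal acetyltransferase, stood at 22.0 against 67.3 CPM, and Fh1, the fumarase of the citrate cycle, at 19.7 against 60.7 CPM. Interferon-response genes had no member past 2-fold of 12.

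**Figure D3:**
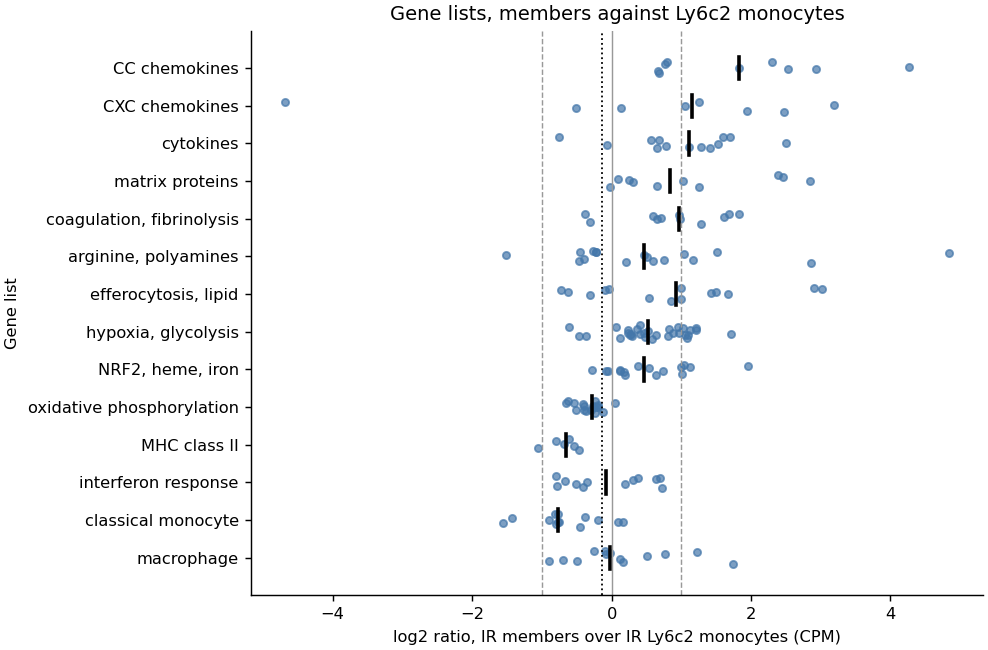
Log2 ratio of IR members over IR Ly6c2 monocytes (x axis) for the genes of the lists (rows, each point a gene, bar the list's median). Dashed lines mark 2-fold and the dotted line the median of all 6652 genes. All CC chemokines lie above 0, all MHC class II genes below 0 and all but 1 of the respiratory-chain genes below 0.

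The C1q macrophages lie on the other side of the rule's C1q limit, so genes that go with C1q differ by that choice. These macrophages differed from the members by far more genes: 8.25% of the 7370 genes compared were 2-fold or more higher in the members and 20.9% lower. Higher were Dmkn (342 against 5.11 CPM), Chil3, Mmp8 (534 against 21.6 CPM), a collagenase of granulocytes, Inhba, Tnfaip6, and the clotting factor gene F10 (784 against 42.6 CPM). Nrg1, the growth factor neuregulin 1 that acts on cardiomyocytes, stood at 113 against 4.51 CPM. Lower were all 8 of the resident-macrophage genes measured, among them Igf1, insulin-like growth factor 1, at 1.30 against 193 CPM and Gas6, the bridging ligand of MerTK, at 1.44 against 165 CPM. Mgl2, a lectin outside that list, was at 1.30 against 577 CPM. Of 6 MHC class II genes 5 were lower, H2-Aa at 120.3 against 2309 CPM. Atf3, the stress-induced factor at the centre of this study, stood at 414 CPM in the members, 532 in the Ly6c2 monocytes and 1288 in the C1q macrophages, a log2 ratio of −1.64 (−1.70 to −1.58) to the last. Ifih1, which senses viral RNA, and Apaf1, of the apoptosome, stood at 26.5 and 36.3 CPM in the members and at 40.4 and 23.0 CPM in the C1q macrophages.

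The IR members were not uniform in Arg1. In 137 cells Arg1 made up at least 0.0123% of UMIs, the 75th percentile over the members (called Arg1-high), 364 cells held none (Arg1-negative) and 47 lay between. The split uses Arg1, so its level is no result. The Arg1-high cells were somewhat deeper, with a median of 14301 against 12173 UMIs, and a cell with few UMIs can hold Arg1 without a count. Of 6449 genes compared, 3.27% were 2-fold or more higher in the Arg1-high cells and 4.76% lower, with a median log2 ratio of −0.07. Thbs1 (log2 0.33), Saa3 (0.17), Vcan (−0.35) and Chil3 (−0.55) did not reach 2-fold either way.

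Chemokines of alternatively activated macrophages and scavenger genes accompanied Arg1. Ccl24 stood at 519.8 CPM in the Arg1-high cells, a log2 ratio of 3.38 (3.16 to 3.60) to the Arg1-negative cells, and was found in 38.0% and 14.0% of them. Pf4 (platelet factor 4, also made by macrophages) stood at 1447 against 141 CPM (log2 ratio 3.36, 3.23 to 3.48) and was found in 56.9% of the Arg1-high cells. Mrc1 stood at 189.8 against 24.7 CPM (log2 ratio 2.94, 2.63 to 3.27), found in 35.0% and 12.6% of cells. Pdpn was found in 39.4% of Arg1-high and 9.07% of Arg1-negative cells. Stab1 stood at 109 against 34.9 CPM (log2 ratio 1.64, 1.34 to 1.96).

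Ccl7 (3723 against 898 CPM), Ccl12, Ccl2 (10091 against 3287 CPM), Cxcl3 (7757 against 2280.2 CPM) and Spp1 (2265 against 646 CPM) had higher levels as well, and so did Hmox1 (1015 against 377 CPM) and Tgm2 (317 against 140.1 CPM). Of 9 CC chemokines 4 passed 2-fold upward and 1 downward. The latter was Ccl5, found in 8.76% of Arg1-high and 6.87% of Arg1-negative cells. Its 5 top cells held 77.3% of its UMIs in the members. Of 10 genes of alternative activation 5 passed 2-fold: Arg1 itself, Retnla, Mrc1, Tgm2 and Clec10a, of which Retnla rested on very few cells. The 13 genes of that list in the matrices summed to 9180 CPM in the Arg1-high and 9372 CPM in the Arg1-negative cells. Of 32 hypoxia and glycolysis genes 27 were above 0 and 4 passed 2-fold. The 7 red cell and platelet markers, of which Ppbp is one, summed to 642 CPM in the Arg1-high and 132 CPM in the Arg1-negative cells, and their part in the Pf4 and Ppbp values was not tested.

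Lower in the Arg1-high cells were genes of blood monocytes. Plac8 stood at 868 against 2069 CPM (log2 ratio −1.25, −1.33 to −1.18). Pld4, a lysosomal nuclease, stood at 56.6 against 189 CPM, Siglece, an inhibitory sialic acid receptor, at 12.2 against 56.1 CPM, and Cd300a, another inhibitory receptor, at 45.4 against 138 CPM. Ly6c2 (log2 −0.71) and Ccr2 (−0.52) were lower without reaching 2-fold. Of 12 classical-monocyte genes 3 passed 2-fold downward and 0 upward.

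**Figure D4:**
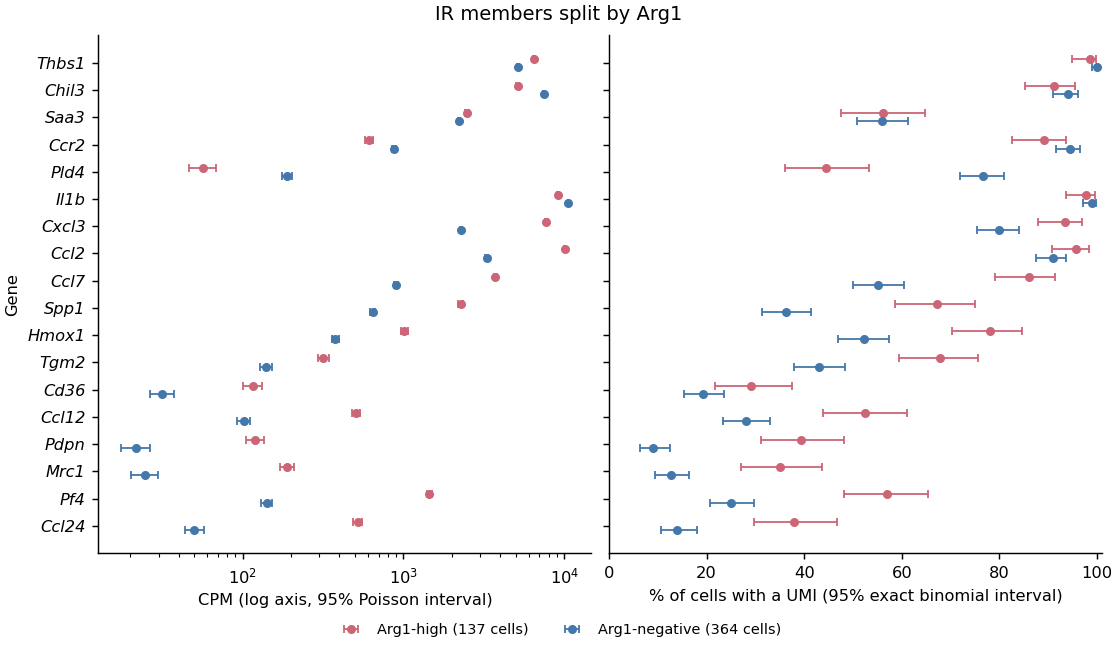
Levels of named genes in the 137 Arg1-high and 364 Arg1-negative IR members: CPM on a log axis with 95% Poisson intervals (left) and percent of cells with a UMI with 95% exact binomial intervals (right). Ccl24, Pf4, Mrc1 and Pdpn differ most upward, Pld4 downward, and Saa3 and Thbs1 hardly.

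Some ratios of the split rested on very few cells. Retnla, a secreted protein of alternatively activated macrophages, stood at 117 against 0.698 CPM (log2 ratio 7.39, 5.82 to 9.67), but 8 of the 548 members held it, 5 of these also held Arg1, and the top 5 cells held 98.7% of its UMIs. For Prg4, which encodes the lubricant lubricin, the top 5 cells held 79.7%, and for Ppbp 41.3%. For the leading chemokine genes of the split the top 5 cells held 43.2% (Ccl24) and 32.2% (Pf4). They held 22.0% of the Mrc1, 18.4% of the Pdpn and 9.30% of the Cxcl3 UMIs. Arg1 and Pf4 were found together in 97 cells, which is 52.7% of the cells with Arg1 and 51.6% of those with Pf4. Arg1 and Ccl24 were found together in 62 cells, 33.7% of those with Arg1 and 54.9% of those with Ccl24. Of all 548 members, 33.6% held Arg1, 34.3% Pf4 and 20.6% Ccl24. These overlaps were not adjusted for the depth of the cells.

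**Figure D5:**
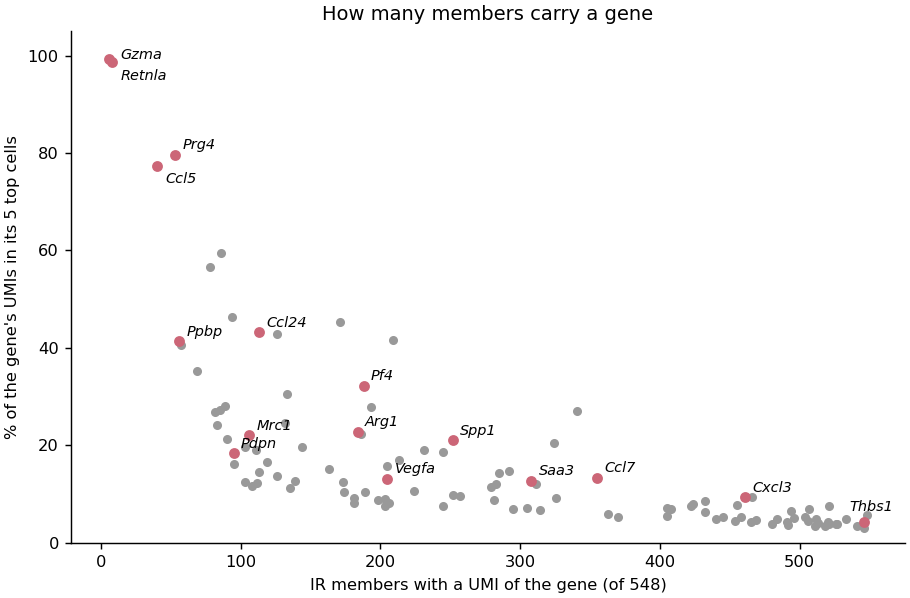
Number of IR members with a UMI of a gene (x axis, of 548) and share of its UMIs in its 5 top cells (y axis, percent), for the named genes with at least 100 UMIs, some of them labelled in red. Retnla and Gzma sit in fewer than 10 cells, while Thbs1 and Cxcl3 are spread over most cells.

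The 9 sham members were too few and too mixed for a comparison of their own. They held 51157 UMIs in all, so 1 UMI was worth 19.5 CPM. Of them 5 had between 7533 and 11650 UMIs and held Chil3 (8 to 90 UMIs) and Ly6c2 (7 to 36 UMIs). The other 4 had 518, 580, 887 and 2120 UMIs and held neither, and 2 of these 4 held 12 and 73 UMIs of the platelet genes Ppbp, Gp9 and Itga2b. Thrombospondin 1 is also a protein of platelet granules. Arg1 had 0 UMIs in all 9 cells, and Saa3 7 UMIs, all in 1 cell.

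Against these 9 cells, 9.6% of 5896 genes were 2-fold or more higher in the IR members and 35.2% lower, but 62.3% of these genes rested on 3 sham UMIs or fewer. Among the genes named as higher were chemokines. Ccl2 had 1 UMI in the sham members and 5456 CPM in the IR members, a log2 ratio of 8.12 (5.65 to 13.43). Cxcl3 had 0 UMIs, so that at the floor of 3 UMIs over the group its log2 ratio was at least 6.13, and Ccl7 and Cxcl1, also at 0, were at least 4.96 and 4.00 higher. The 9 CC chemokines compared passed 2-fold, but Ccl7 and Ccl24, at 0 in the sham members, could enter only as higher, and the interval of Ccl5 included equality (log2 ratio 1.24, −1.25 to 6.55). Saa3, with 7 sham UMIs (log2 ratio 4.02, 2.98 to 5.34) and Ptgs2 (log2 ratio 4.25, 3.03 to 5.88) were higher too, and Ltb4r1 was not distinguishable from equal (log2 ratio 0.88, −0.05 to 2.01). Of 15 interferon-response genes 12 passed 2-fold downward, among them Irf7 (log2 ratio −2.65, −3.48 to −1.68), but the intervals of Mx1, Oasl1, Gbp2 and Apaf1 included equality, and genes under 10 CPM in the IR members entered only through the sham members. Lower were also Ly6c2 (log2 ratio −2.45, −2.73 to −2.16) and a set led by Nrgn (645 CPM in the sham members), Gng11, Clec1b and Clu, of which Clec1b and Nrgn are known from platelets. Pf4 (log2 −1.57) and Ppbp (−2.87) were lower in the IR members, and without the 2 sham cells with platelet transcripts they were higher, at 3.70 and at least 1.47.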

How the data were processed

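Cells of the left ventricle were sequenced with 10x Genomics 3′ version 2 chemistry. Each condition has 1 filtered matrix of UMI counts deposited by the authors, with genes in rows and barcodes in columns, made with Cell Ranger (3.1.0 per the submitters' processing notes) on mm10; the counts are raw and were used as deposited. The matrices list 27998 genes.

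Barcodes with at least 200 genes and at most 30% mitochondrial UMIs were kept, without an upper gene limit, and members and comparison groups were selected on marker shares. The members and gene lists were chosen with earlier results of these data known. UMIs were summed per group and divided by the group's total (CPM). Genes at 10 CPM in either group with at least 20 UMIs in both together were compared, and a gene was counted as higher or lower past 2-fold. Levels carry exact Poisson, shares Clopper-Pearson and ratios exact conditional 95% intervals, which cover counting error only. A gene at 0 was set to a floor of 3 UMIs over the group, and was left out where that bound pointed the wrong way. With 1 library per condition no p-value was computed. Genes were named from the lists where they reached 10 CPM in a compared group, and otherwise from the 15 highest and 15 lowest log2 ratios per comparison at 50 CPM or more in the higher group, leaving out selecting, mitochondrial, ribosomal protein, hemoglobin, Gm-numbered and Rik genes. Cebpd, Clec7a and Selenop were not matched in the matrices and Itgam was listed more than once, so these were not used. For detection shares each cell was thinned to 2000 UMIs. Doublets were scored against simulated pairs and kept in the main analysis. Python 3.11.15, numpy 2.4.6, scipy 1.17.1, pandas 2.3.3 and scikit-learn 1.9.0 were used, and the ratio code was tested on simulated data. Alternatives varied the threshold, gene and mitochondrial limits, C1q limit, doublets, cell weights and CPM filter. Promoter windows came from the RefSeq table on GRCm38.p6 and gene positions from GENCODE vM21. Values of some genes of the lists are not reported here.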

Additional observations from a re-analysis of the deposited data

Results flagged for a closer look

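Pf4 and Ppbp, chemokine genes that are abundant in platelets, had opposite directions between libraries in different cells. In the members the log2 ratio of IR over sham was −1.57 for Pf4 and −2.87 for Ppbp. In Ly6c2 monocytes it was 2.30 for Pf4 and 5.67 for Ppbp, and in C1q macrophages it was 3.88 for Ppbp. The difference was not tested, since each condition is 1 library. Of the 9 sham members, 2 held 12 and 73 UMIs of Ppbp, Gp9 and Itga2b, and without them the ratios in the members were 3.70 for Pf4 and at least 1.47 for Ppbp.

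Outside the cells analysed, 6 IR barcodes above the 30% mitochondrial limit met the rest of the rule, of 210 such barcodes with at least 200 genes, against 0 of 103 in the sham library. They were not used, and the difference was not tested.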

How the results depend on the processing

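No paired analysis was possible because the barcodes name none of the recorded samples. For the same reason no replicate could be left out. The share of members was 0.176% of sham and 8.17% of IR barcodes at a threshold of 0.2%, and 0.0264% and 4.10% at 0.5%. In the IR library it was 3.18% with at most 2500 genes per cell, 5.54% on Thbs1 and Arg1 alone and 7.25% with a mitochondrial limit of 10%. The number of genes compared differed between settings, so shares are given with the counts. With at most 2500 genes per cell, 722 of 4909 genes (14.7%) were higher than in the monocytes. Of 1128 genes, 148 (13.1%) were higher and 633 (56.1%) lower than in the sham members. At 50 CPM, 129 (4.69%) of 2749 genes were higher and 70 (2.55%) lower than in the monocytes. Of 3041 genes, 362 (11.9%) were higher and 419 (13.8%) lower than in the C1q macrophages. Of 3448 genes, 1087 (31.5%) were lower than in the sham members. Of 2636 genes, 66 (2.50%) were higher and 70 (2.66%) lower in Arg1-high than Arg1-negative members. Without a CPM filter, 521 (5.75%) of 9060 genes were higher and 712 (7.86%) lower than in the monocytes. In that setting 3039 of 10662 (28.5%) were lower than in the C1q macrophages and 562 of 8331 (6.75%) lower in the Arg1-high cells. Against the sham members 956 of 7094 genes (13.5%) were higher at a threshold of 0.2% and 206 of 2862 (7.20%) at 0.5%. With each cell weighted equally 1195 of 5754 (20.8%) were higher. Ccl5 turned to −2.63 (log2, against the monocytes) with at most 2500 genes and to −3.12 at 0.5%, and Gzma to −5.34 at 0.5%. The cause was not tested. Chosen after seeing the data, leaving out monocytes with a Cd209a UMI turned Cd209a to 0.99 by construction and kept 64 of 75 named genes past 2-fold (H2-DMb1 −0.75), and leaving out the 2 sham members with platelet UMIs turned Pf4 to 3.70 and Ppbp to at least 1.47.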
